A study of Homo sapiens with 10 samples.

Results

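Transcripts of 41 DNA replication and S-phase genes were examined in HAP1 cells that lacked the DNA glycosylases OGG1 or MUTYH, and in wild-type HAP1 cells exposed to hydrogen peroxide (H2O2). The members were named in a list, and all 41 were found among the 59453 genes of the count tables. HAP1 is an established near-haploid adherent line that descends from the leukaemia line KBM-7. The 10 libraries came from 5 groups of 2: untreated wild type (WT, clones 2 and 11), MUTYH knockout (clones 7 and 8), OGG1 knockout (clones 1 and 22), the double knockout of both glycosylases (DKO, clones 4 and 14), and WT clones 2 and 11 harvested 24 h after addition of 100 µM H2O2. Knockouts were made by CRISPR-Cas9. Each untreated library stands for a separate clone, so P values measure the spread between clones, and both DKO clones descend from a single OGG1 knockout clone. By the product number that the authors list, this parent matches OGG1 knockout clone 22. DKO and the OGG1 knockout are therefore not independent groups. Whether the treated cultures were processed alongside the untreated ones is not given, so treatment and any difference in handling cannot be told apart.

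Replication of the genome is prepared and carried out by proteins that act in a fixed order. The origin recognition complex, CDC6 and CDT1 load the MCM helicase onto origins in G1, cyclin E with CDK2 drives entry into S phase, and CDC45, GINS and MCM10 turn the loaded helicase into an active fork. At the fork, RPA coats single-stranded DNA, polymerase alpha with primase starts each strand, the RFC complex loads the PCNA clamp, and polymerases delta and epsilon extend. Many of these genes are transcribed under control of E2F factors at the G1 to S transition, and most are needed again when damaged DNA is copied or repaired. OGG1 removes 8-oxoguanine paired with cytosine, whereas MUTYH removes adenine that a polymerase has placed opposite 8-oxoguanine, a step that is tied to the replication fork. In bulk RNA, a smaller number of S-phase cells and a lower level of a transcript per cell cannot be told apart.

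E2F-type sequences near the start sites are shown first, because they are a feature, other than function, that many of the members share. Promoters of 300 bases (250 before and 50 from the start site, RefSeq, GRCh38.p14, the first entry where a gene had several) were present for 34 of the 41 members. They were searched on both strands for TTTGGCGC, TTTCCCGC, TTTCGCGC and TTTGCCGC, which can overlap each other. At least 1 match stood in 18 of 34 member promoters (52.9%), against 908 of all 27305 promoters (3.33%). The share was 30.4% of 46 promoters of other replication and S-phase genes and 13.3% of 15 promoters of G2/M genes. TTTGAA, the letters of the CHR element known from G2/M genes, stood in 2.94% of member promoters, in 66.7% of G2/M promoters and in 15.4% of all promoters. CCAAT stood in 64.7% of member promoters against 35.7% of all, and GGGCGG in 73.5% against 44.6%. A match is a description of these letters and not a measured binding site, and the members had been listed as replication genes, many of which are known E2F targets.

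The following windows of 30 bases hold the matches, in capitals, of a few members that are described below. CDC6 (chr17:40287875-40287904, plus strand) and POLA1 (chrX:24693770-24693799, plus strand) were called after H2O2 without a block by clone. Of the 9 members so called, RPA2 and CCNE2 had no promoter to search, and the others had no match. MCM6 (chr2:135876575-135876604 and chr2:135876513-135876542, minus strand) and MCM2 (chr3:127598404-127598433, plus strand) carry matches that overlap on both strands, which are printed as 1 run of capitals. PCNA (chr20:5126663-5126692, minus strand) had the highest level per kilobase, and E2F1 (chr20:33686387-33686416, minus strand) encodes a factor of the E2F family itself. A further match of E2F1, 33 bases before the start, is not marked. Each is written 5′ to 3′ along the strand of its gene.
CDC6: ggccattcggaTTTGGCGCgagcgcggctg
POLA1: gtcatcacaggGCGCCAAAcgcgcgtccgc
MCM6 first window: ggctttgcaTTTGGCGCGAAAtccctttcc
MCM6 second window: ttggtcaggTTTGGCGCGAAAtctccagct
MCM2: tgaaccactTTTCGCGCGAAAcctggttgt
PCNA: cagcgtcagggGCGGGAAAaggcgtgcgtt
E2F1: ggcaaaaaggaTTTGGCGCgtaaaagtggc

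All 41 members were expressed in every library, with 239 to 14764 counts per member and library, and all passed the filter on low counts in both fits. Together they took 0.558% to 0.699% of the counts of a library. Levels between genes are compared as CPM per kilobase of exon (CPM per kb), and those of a gene between libraries as TMM-normalized CPM, where CPM are counts scaled to the total of the library and TMM (trimmed mean of M values) corrects that total. Over the 8 untreated libraries, PCNA, the sliding clamp, had the highest median level at 154 CPM per kb, followed by the helicase subunits MCM7 (118 CPM per kb) and MCM3 (102 CPM per kb). PCNA was at 247.3 and 199.2 CPM in WT clones 2 and 11, 200.02 and 251.5 CPM in MUTYH knockout clones 7 and 8, 189.1 and 244.8 CPM in OGG1 knockout clones 1 and 22, and 203.4 and 228.7 CPM in DKO clones 4 and 14. The clones of a genotype differed more than the genotypes did, and all groups overlapped.

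The 6 helicase subunits form a ring with 1 copy of each. Per kilobase the medians of their RNA ran from 33.5 (MCM5) to 118 (MCM7). The length used is the union of all annotated exons, 7268 bases for MCM5 and 4960 for MCM7, and not that of the expressed transcript. The part of this length in differences between genes was not tested. The 5 subunits of the clamp loader lay between 20.2 (RFC1) and 40.3 CPM per kb (RFC3). The GINS subunits, which also form a complex with 1 copy of each, ran from 4.58 (GINS3) to 29.9 CPM per kb (GINS2). POLA2, the regulatory subunit of polymerase alpha, had the lowest level of all members at 1.39 CPM per kb, over a long annotated exon union of 12006 bases. It was at 17.4 and 16.1 CPM in WT clones 2 and 11, 19.6 and 17.4 CPM in MUTYH knockout clones 7 and 8, 18.4 and 15.3 CPM in OGG1 knockout clones 1 and 22, and 15.0 and 13.5 CPM in DKO clones 4 and 14. Both DKO clones lay below both WT and both MUTYH knockout clones, by less than the fit could tell from zero (log2 fold change against WT -0.23 ± 0.19, SE, edgeR unadjusted P = 0.264).

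**Figure D1:**
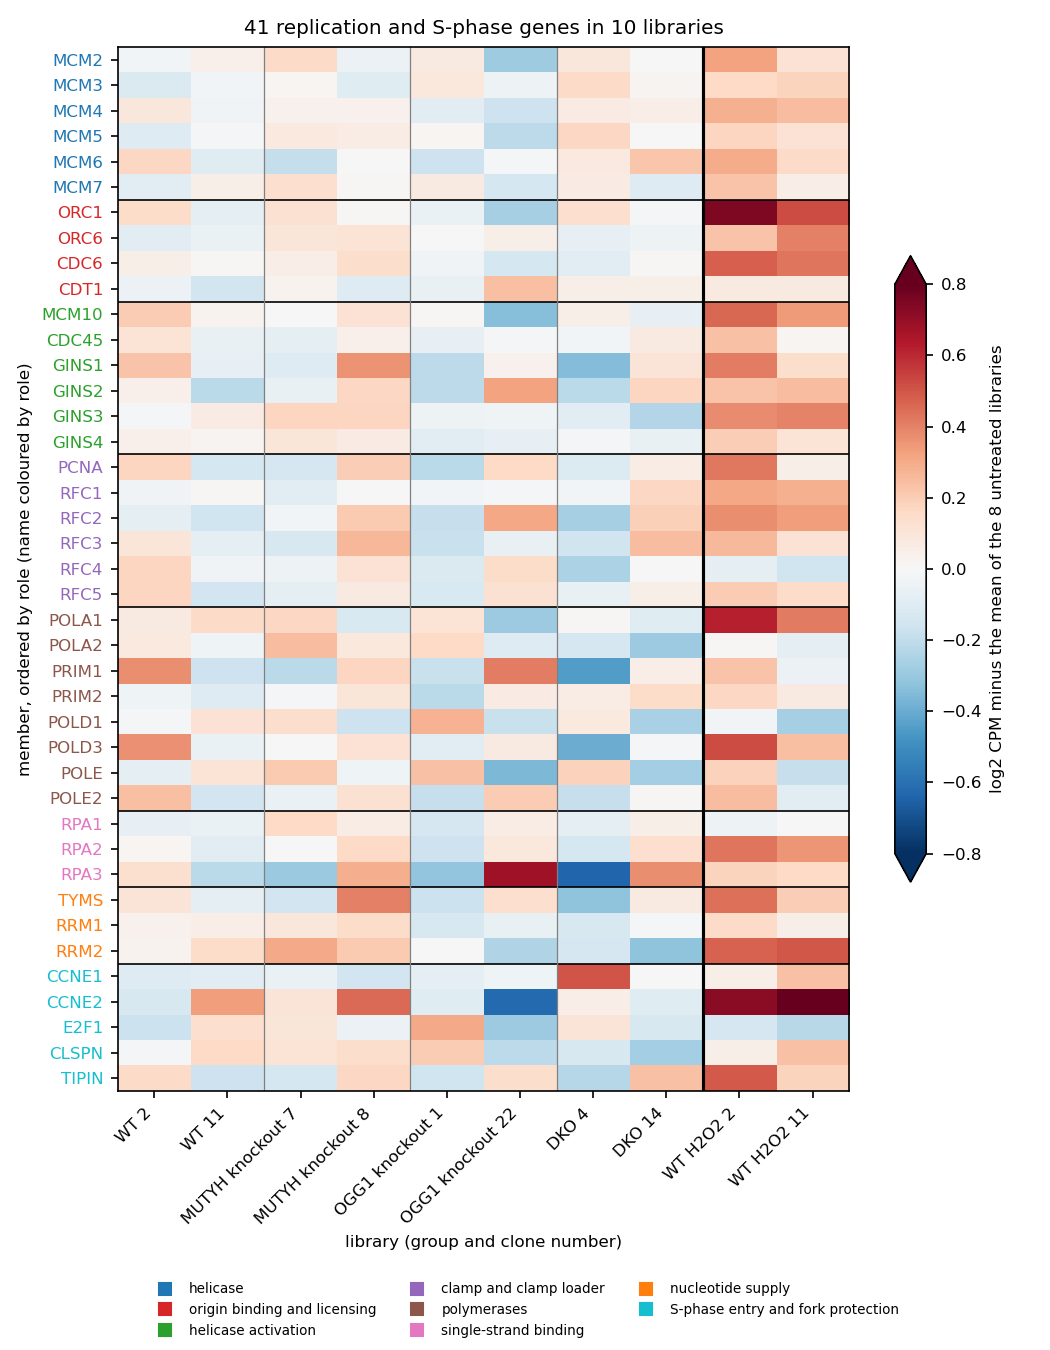
Each cell shows the log2 CPM of a member (rows, ordered and coloured by role) in a library (columns) minus its mean over the 8 untreated libraries, on a scale from -0.8 to 0.8. The 2 columns of H2O2-treated WT to the right of the thick line are mostly red, whereas within the untreated libraries the clones of a genotype differ as visibly as the genotypes.

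Total counts ranged from 22225091 to 22674964 per library and TMM factors from 0.967 to 1.01, so depth was nearly even, and the lowest member count, 239, carries a counting coefficient of variation of 6.47%. RNA of the targeted genes did not separate all knockout libraries from WT. Of the OGG1 knockout clones, clone 1 had 27 counts of OGG1 RNA and clone 22 had 254. The WT libraries had 275 and 295, and DKO had 215 and 223. For MUTYH RNA the counts were 105 and 89 in WT, 101 and 83 in its knockout, and 106 and 50 in DKO. A frameshift need not lower a transcript. Of the blood cell markers of the parent line, PTPRC had at most 3 counts and CD3E and MPO had 0 counts in every library, and the summed level of the 8 markers was 2.68 to 5.92 CPM over the 10 libraries. VIM, a mesenchymal filament gene, was at 195.4 to 498.1 CPM. The marker lists moved in both directions between genotypes. Of 3 blood markers and 7 fibroblast and epithelial markers that passed the filter, 0 and 0 were called by edgeR at an unadjusted P of 0.05 in the MUTYH knockout, 1 and 1 in the OGG1 knockout and 1 and 3 in DKO, all higher, with list medians on the log2 scale of 0.32 and 0.49 in the OGG1 knockout and -0.23 and 0.21 in DKO. The called blood marker was CD34, on 3 to 23 counts per untreated library, whereas HBA1 had 87 and 63 counts in WT and 42 and 42 in DKO. The part of these markers in the results was not tested.

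No member passed the test against WT in cells that lacked OGG1, MUTYH or both, and the median differences were small. The comparisons asked which replication transcripts depend on the glycosylases, and all 3 used the same WT libraries, so they are not independent. In a fit of the 8 untreated libraries across 17881 genes with the edgeR quasi-likelihood test, no member reached an unadjusted P of 0.05 in the MUTYH knockout (1.72% of all tested genes did), the OGG1 knockout (2.74%) or DKO (2.94%). No member was a differentially expressed gene (DEG, unadjusted P at most 0.05 and over 2-fold), against 1.19%, 1.67% and 1.77% of all tested genes. The DESeq2 Wald test also called 0 members in each. The median log2 fold change of the members was 0.05 in the MUTYH knockout, -0.03 in the OGG1 knockout and -0.01 in DKO, against 0.01, 0.01 and 0.0008 over all tested genes.

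The intervals show how large an effect the libraries could have hidden. The 95% interval of the log2 fold change stayed within 2-fold for 40 of 41 members in the MUTYH knockout, 39 in the OGG1 knockout and 41 in DKO. The exceptions were RPA3, the smallest subunit of the single-strand binding complex, in both single knockouts and cyclin E2 (CCNE2) in the OGG1 knockout. Groups that did not overlap were read against the same count over all genes. In the MUTYH knockout, both libraries lay above both WT libraries for 11 members (11.8% of all tested genes) and below them for 0 (9.78%). In the OGG1 knockout they lay above for 2 (13.0%) and below for 7 (12.2%), and in DKO above for 5 (13.1%) and below for 8 (12.6%).

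**Figure D2:**
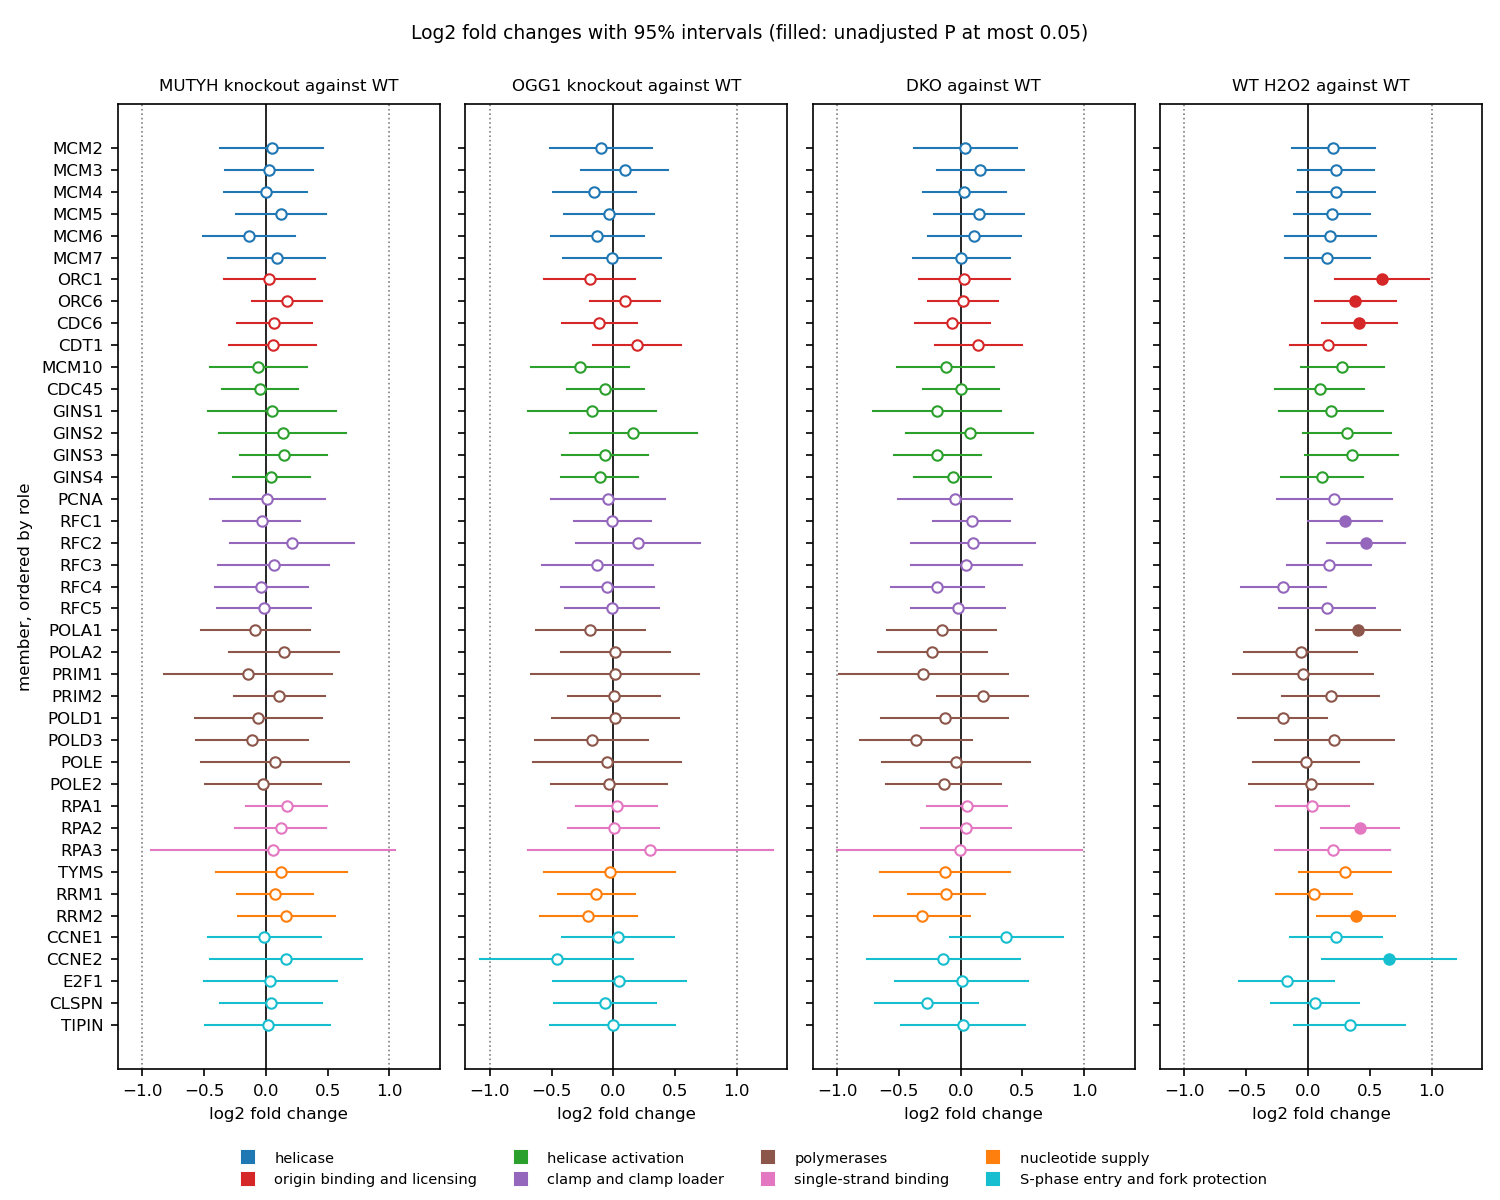
Log2 fold changes (points) with 95% intervals (lines) of the 41 members, coloured by role, in the 4 comparisons with untreated WT. Dotted lines mark 2-fold and filled points an unadjusted P of at most 0.05. The 3 genotype panels hold no filled point, and the H2O2 panel holds 9, all to the right of 0.

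In the MUTYH knockout, the smallest P among the members belonged to ORC6, a subunit of the origin recognition complex. It was at 73.5 and 75.7 CPM in WT clones 2 and 11 and at 83.8 and 84.7 CPM in MUTYH knockout clones 7 and 8. The groups did not overlap and the clones within each lay close together, and the log2 fold change was 0.17 ± 0.12 (SE, edgeR unadjusted P = 0.201). All 4 licensing genes and all 3 genes of nucleotide supply had positive log2 fold changes in this knockout, from 0.03 to 0.17 and from 0.07 to 0.16, none of which passed the test. RPA1, the large subunit of RPA, was at 161.9 and 163.0 CPM in WT and 189.1 and 176.9 CPM in the MUTYH knockout (log2 fold change 0.17 ± 0.14, SE, edgeR unadjusted P = 0.264). RFC2, of the clamp loader, was at 57.8 and 54.5 CPM in WT clones 2 and 11 and 60.0 and 70.4 CPM in MUTYH knockout clones 7 and 8 (log2 fold change 0.21 ± 0.22, SE, edgeR unadjusted P = 0.357). For both genes the knockout lay above WT, and for RFC2 the knockout clones lay farther apart than the group means did.

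In the OGG1 knockout, the smallest P belonged to CCNE2, an activator of CDK2 at S-phase entry. It was at 15.0 and 20.7 CPM in WT clones 2 and 11 and at 15.3 and 10.6 CPM in OGG1 knockout clones 1 and 22. Clone 1 lay within the WT range and clone 22 alone below it, and the log2 fold change was -0.46 ± 0.27 (SE, edgeR unadjusted P = 0.125). MCM10, which helps to activate the helicase, was at 128.5 and 113.9 CPM in WT and 112.6 and 88.2 CPM in OGG1 knockout clones 1 and 22 (log2 fold change -0.27 ± 0.17, SE, edgeR unadjusted P = 0.1501). Of the alternatives tried, leaving out clone 1 was the one under which both genes passed an unadjusted P of 0.05, with log2 fold changes of -0.76 for CCNE2 and -0.47 for MCM10. CDT1 was at 128.7 and 119.7 CPM in WT clones 2 and 11 and 127.3 and 156.5 CPM in OGG1 knockout clones 1 and 22, and ORC1 at 88.4 and 75.6 CPM and then at 76.9 and 66.5 CPM. In both cases the groups overlapped (edgeR unadjusted P = 0.241 and unadjusted P = 0.262). OGG1 knockout clone 22 had the lowest level of all untreated libraries for MCM2, MCM4, MCM5, MCM7, MCM10, ORC1, CDC6, POLA1, POLE, CCNE2 and E2F1. It had the highest for CDT1, GINS2, RFC2, PRIM1 and RPA3. Its summed level of the members, which the abundant genes dominate, was the lowest at 5549 CPM against 5806 to 6137 CPM in the other untreated libraries, but by the median deviation of the members (-0.03 on the log2 scale) it lay above OGG1 knockout clone 1 (-0.09), DKO clone 4 (-0.07) and WT clone 11 (-0.05).

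In DKO, the smallest P belonged to CCNE1, cyclin E1. It was at 31.9 and 32.3 CPM in WT clones 2 and 11 and at 48.5 and 34.2 CPM in DKO clones 4 and 14. DKO clone 4 stood alone above the other 7 untreated libraries, which lay between 30.7 and 34.2 CPM, and clone 14 was just above both WT libraries. The log2 fold change was 0.37 ± 0.19 (SE, edgeR unadjusted P = 0.0976), and without clone 14 it was 0.59 (edgeR unadjusted P = 0.0163). CCNE1 lies on chromosome 19 (GRCh38 chr19:29811991-29824312). The 168 tested genes within 10 Mb of CCNE1 had a median deviation of -0.03 log2 units in clone 4 against 0.50 for CCNE1 itself.

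RRM2, the small subunit of ribonucleotide reductase, had the next smallest P in DKO. It was at 427.9 and 464.5 CPM in WT clones 2 and 11, 518.1 and 484.4 CPM in MUTYH knockout clones 7 and 8, 420.1 and 354.8 CPM in OGG1 knockout clones 1 and 22, and 381.3 and 335.2 CPM in DKO clones 4 and 14. Both DKO libraries lay below all WT and MUTYH knockout libraries and overlapped with the OGG1 knockout. Against WT the DKO log2 fold change was -0.31 ± 0.17 (SE, edgeR unadjusted P = 0.101). Against the MUTYH knockout it was -0.48 ± 0.17 (SE, edgeR unadjusted P = 0.0234, adjusted p = 0.9998), and RRM2 was the only member of 41 that passed the unadjusted threshold there, against 3.43% of all tested genes. No member passed it for DKO against the OGG1 knockout (2.62% of all tested genes) or for the interaction of the knockouts (2.62%), and a block by sets of libraries, described further on, changed these counts.

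POLD3, an accessory subunit of polymerase delta, and CLSPN, which carries the checkpoint signal at forks, followed in DKO. POLD3 was at 72.2 and 54.1 CPM in WT clones 2 and 11 and at 42.7 and 55.6 CPM in DKO clones 4 and 14, so the groups overlapped (log2 fold change -0.36 ± 0.19, SE, edgeR unadjusted P = 0.105), and without WT clone 11 it was -0.55 (edgeR unadjusted P = 0.0403). CLSPN was at 76.5 and 85.9 CPM in WT and 70.3 and 63.5 CPM in DKO, without overlap (log2 fold change -0.28 ± 0.18, SE, edgeR unadjusted P = 0.161). All 6 helicase genes had positive log2 fold changes in DKO, from 0.0045 to 0.16, whereas 7 of 8 polymerase and primase genes had negative ones, with a median of -0.15. None of these passed the test.

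Over all tested genes, 1.72%, 2.74% and 2.94% were called by edgeR in the MUTYH knockout, the OGG1 knockout and DKO. Among other replication and S-phase genes (55 listed, all tested), 1 was called in the MUTYH knockout, 1 in the OGG1 knockout and 0 in DKO at an unadjusted P of 0.05. These were TK1, thymidine kinase of the salvage pathway, higher in the MUTYH knockout (log2 fold change 0.36, edgeR unadjusted P = 0.0317), and SAMHD1, which degrades nucleoside triphosphates, lower in the OGG1 knockout (-0.56, edgeR unadjusted P = 0.0209). CCND2, cyclin D2, was the DEG of the list of inhibitors, cyclin D and pocket proteins in the MUTYH knockout (log2 fold change -1.71, edgeR unadjusted P = 0.0234), at 38.4 CPM in WT clone 2 but 11.03 CPM in WT clone 11, and it was also lower in the OGG1 knockout and in DKO (-1.47 in each). In all, 1, 3 and 2 of the 17 genes of that list were called in the MUTYH knockout, the OGG1 knockout and DKO. The G2/M list gave 0 of 18 in each of the 3 knockouts.

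The untreated libraries also differed between the clones of a genotype. The first component of the within-genotype deviations, computed over tested genes other than the members, held 49.9% of that variation. Its sign gave a first set, namely clones 2 (WT), 8 (MUTYH knockout), 22 (OGG1 knockout) and 14 (DKO), and a second set of their sister clones. Because the mean of each genotype was subtracted, its 2 clones fall on opposite sides by construction. Only which clones of different genotypes went together was read from the data. No label names these sets, so differences between them are given without a test. All 4 libraries of the first set lay above all 4 of the second for 13 members and below them for 5, against 15.4% and 13.8% of all tested genes.

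RPA3 had the widest spread of the members, 2.49-fold between its lowest and highest untreated library. It was at 26.4 and 20.8 CPM in WT clones 2 and 11, 29.6 and 19.7 CPM in MUTYH knockout clones 8 and 7, 38.8 and 19.4 CPM in OGG1 knockout clones 22 and 1, and 31.4 and 15.6 CPM in DKO clones 14 and 4. In each genotype the clone of the first set was higher, and the sets did not overlap. RPA3 is overlapped by UMAD1, and reads of the overlap cannot be told apart. CCNE2 (2.12-fold) and PRIM1, the catalytic subunit of primase (1.81-fold), followed. PRIM1 was at 38.9 and 26.7 CPM in WT clones 2 and 11, 33.8 and 25.8 CPM in MUTYH knockout clones 8 and 7, 39.9 and 26.5 CPM in OGG1 knockout clones 22 and 1, and 31.2 and 22.01 CPM in DKO clones 14 and 4, again without overlap between the sets. The PRIM1 gene is overlapped by NACA on the same strand and by HSD17B6 on the opposite strand, with the same limit as for RPA3. The median spread of the members was 1.34-fold, against 1.46-fold for 8805 tested genes of like level.

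The members that differed most between the sets also differed in base composition. In 5 members the first set lay wholly below the second, and their transcripts were 55.8% to 64.8% GC. These were POLD1 and POLE, the catalytic subunits of polymerases delta and epsilon, E2F1, MCM2 and MCM7. MCM3 (51.7% GC), MCM5 (56.3%), POLA1 (42.9%) and RRM2 (42.1%) were also lower in the first set in every genotype, but the sets overlapped. For POLA1 and RRM2, of low GC, the mean log2 differences were -0.22 and -0.16. Of the 10 members of lowest transcript GC (34.6% to 42.6%), 8 were higher on average in the first set (median log2 difference 0.27), and of the 10 of highest GC (51.7% to 64.8%), 2 were (median -0.15). The Spearman correlation of the difference with transcript GC was -0.43 across the 41 members and -0.22 across 15222 tested genes. With the length of the annotated exon union it was -0.47 and -0.13. Genes are not independent replicates, and all points share the same 8 libraries. The part of composition or length in these differences was not tested.

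**Figure D3:**
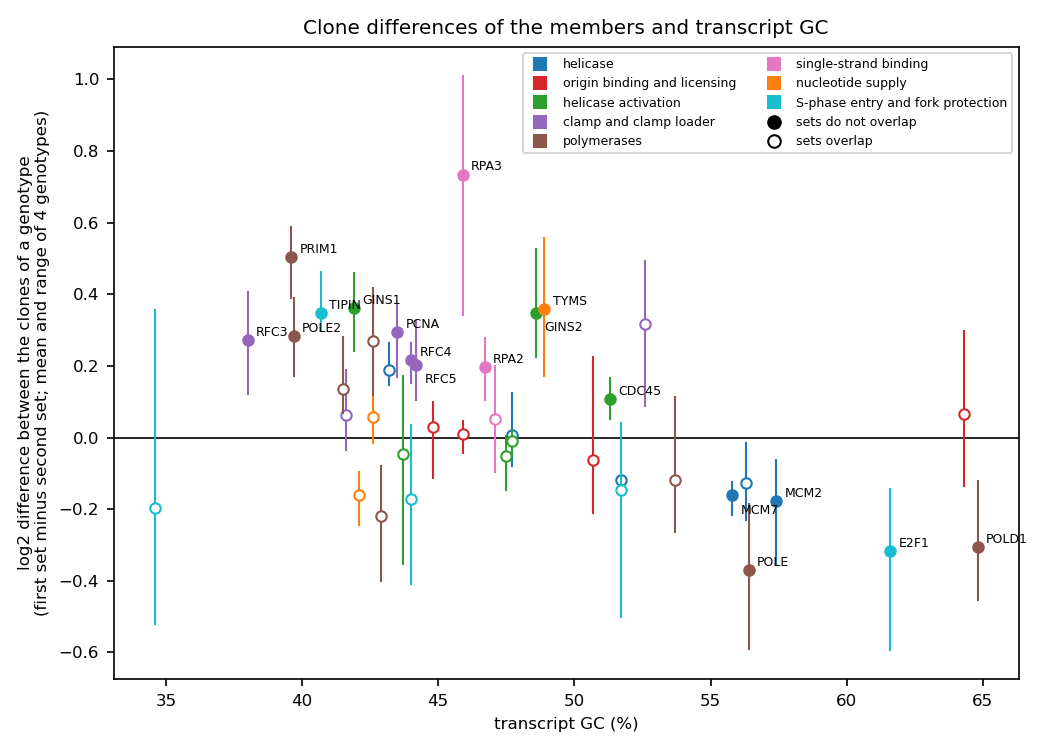
For each member, the mean (point) and range (line) over the 4 genotypes of the log2 difference between the clone of the first set and the clone of the second set, against the GC content of its transcripts in percent. Filled points are members whose sets do not overlap. The filled points above 0 lie at or below 51.3% GC and the 5 below 0 at or above 55.8%.

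With these sets as a block in the fit, 4 members passed an unadjusted P of 0.05 in DKO, all lower than in WT: RRM2 (log2 fold change -0.32, edgeR unadjusted P = 0.00974), POLD3 (-0.36, unadjusted P = 0.0152), PRIM1 (-0.30, unadjusted P = 0.0311) and CLSPN (-0.28, unadjusted P = 0.0494). They stand beside 7.32% of all tested genes, and 0 passed in the MUTYH knockout (4.46%) and 0 in the OGG1 knockout (7.18%). The smallest adjusted p of a member in DKO was 0.58. In the same fit, 7 members passed for DKO against the MUTYH knockout (8.47% of all tested genes), 2 for DKO against the OGG1 knockout (7.58%) and 1 for the interaction (7.02%), and none passed adjustment. MCM6, a helicase subunit, was among them in each. It was at 272.6 and 226.9 CPM in WT clones 2 and 11, 213.0 and 243.4 CPM in MUTYH knockout clones 7 and 8, 216.3 and 240.4 CPM in OGG1 knockout clones 1 and 22, and 255.8 and 283.0 CPM in DKO clones 4 and 14. DKO lay above both single knockouts and overlapped with WT (log2 fold change 0.25, edgeR unadjusted P = 0.0231 against the MUTYH knockout, 0.24, unadjusted P = 0.0259 against the OGG1 knockout, and 0.37, unadjusted P = 0.0178 for the interaction). PRIM1 was the other member called against the OGG1 knockout, lower in DKO (-0.31, edgeR unadjusted P = 0.0261). Since the sets were taken from the same libraries, P values of this fit are too small.

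RNA of 9 of the 41 members was higher after H2O2 in WT. The comparison asked how transcripts responded to oxidative stress 24 h after treatment, in the same 2 clones with and without H2O2. At an unadjusted P of 0.05 (edgeR quasi-likelihood test, 16997 genes), 9 of 41 members were called, all higher, against 7.63% of all tested genes in either direction and 3.57% in the higher direction. None was a DEG (1.75% of all tested genes) and none passed adjustment over all genes (smallest adjusted p = 0.638). The DESeq2 Wald test called 9 members at an unadjusted P of 0.05, the same 9, with 0 after adjustment and 0 DEGs. The median log2 fold change was 0.20 over the members and 0.0002 over all tested genes, with 35 of 41 members and 50.0% of all tested genes above 0. Both treated libraries lay above both untreated WT libraries for 26 members (21.5% of all tested genes) and below them for 2 (20.0%). The summed level of the members was 5975 and 5874 CPM in untreated clones 2 and 11 and 7118 and 6593 CPM after treatment.

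The clones pair the treated with the untreated libraries, and the pairing changed the calls. With clone as a block, 14 members were called, all higher, against 20.1% of all tested genes in either direction and 9.61% in the higher one. ORC1 (adjusted p = 0.0264) and CCNE2 (adjusted p = 0.0412) passed adjustment by edgeR in this fit, against 2.57% of all tested genes in either direction and 1.18% in the higher one. The fit left 1 residual degree of freedom, so it leans on the spread that edgeR shares between genes. Without the pairing, an exact permutation test of 2 against 2 libraries cannot give a two-sided p below 0.333. Exchange within the pairs allows fewer arrangements still. The calls without the block depended on single libraries: without treated clone 2 the count was 0 and without treated clone 11 it was 1, whereas it was 6 without either untreated clone. The share of all tested genes called moved too, to 3.30% without treated clone 2, 2.04% without treated clone 11, 4.98% without untreated clone 11 and 11.5% without untreated clone 2.

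The changes had the same sign in both clones for most members. RNA was higher after H2O2 in both clones for 34 of 41 members (34.0% of all tested genes), lower in both for 3, namely RFC4, POLA2 and POLD1 (31.5%), and opposite for PRIM1, POLE, RRM1 and E2F1. The median log2 change of the members was 0.19 in clone 2 and 0.22 in clone 11, against 0.005 and 0.02 over all tested genes. In 12 members RNA was over 1.2-fold higher in both clones, against 8.93% of all tested genes. Against all 8 untreated libraries of every genotype, both treated libraries lay above for 14 members (8.74% of all tested genes) and below for 0 (6.72%).

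**Figure D4:**
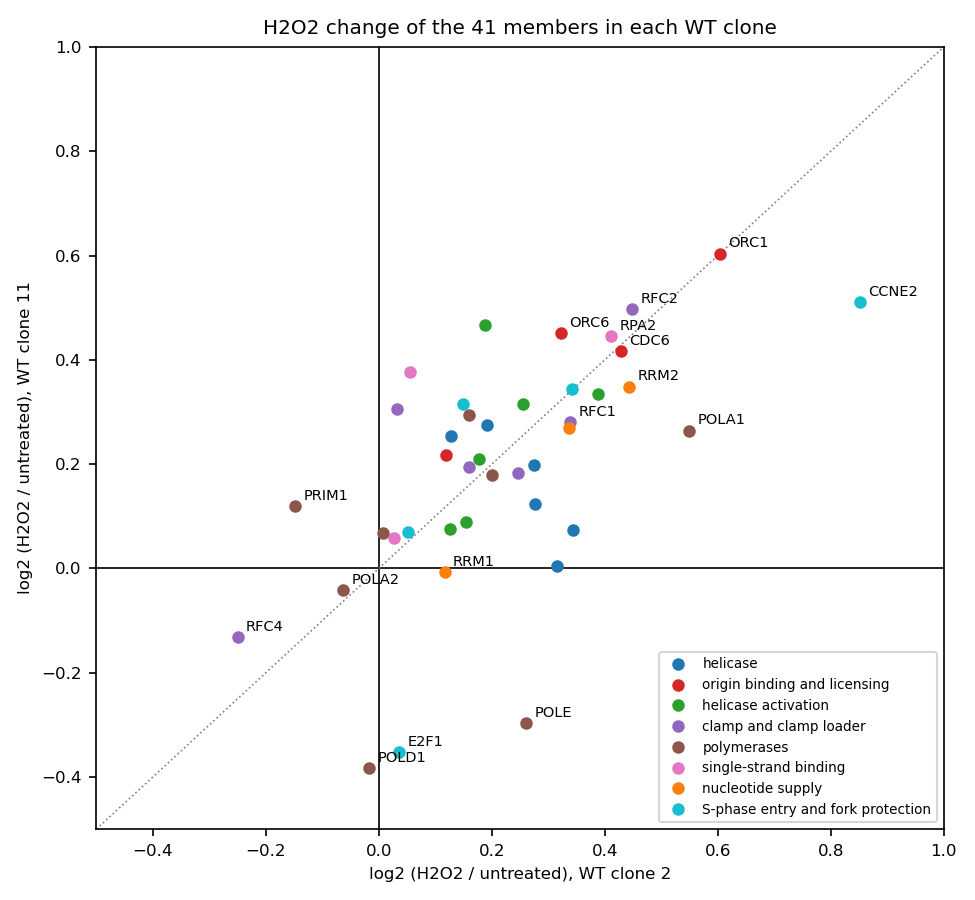
Log2 ratio of normalized counts after H2O2 to untreated in WT clone 2 (horizontal axis) and WT clone 11 (vertical axis) for the 41 members, coloured by role; the dotted line marks equal change. Labels mark the 9 members at an unadjusted P of at most 0.05 and the 7 that were not higher in both clones. Most points lie in the upper right part, above 0 on both axes, with ORC1 on the line at 0.60 in both clones and CCNE2 farthest right at 0.85.

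Origin binding and licensing genes had the highest median of the 8 roles (log2 fold change 0.40), and 3 of 4 were called. The role holds only ORC1 and ORC6 of the origin recognition complex. Outside it, ORC2 was at 74.0 and 59.6 CPM in untreated clones 2 and 11 and at 70.6 and 65.4 CPM after H2O2. ORC3 was at 78.8 and 81.1 CPM and then at 83.5 and 93.2 CPM. ORC4 was at 52.8 and 51.9 CPM and then at 52.1 and 58.8 CPM. ORC5 was at 49.7 and 45.1 CPM and then at 58.8 and 56.3 CPM. ORC1 (GRCh38 chr1:52372829-52404423), the subunit of the origin recognition complex whose level varies through the cell cycle, was at 88.4 and 75.6 CPM in untreated clones 2 and 11 and at 134.4 and 114.9 CPM after H2O2. Both treated libraries lay above all 8 untreated libraries, which ran from 66.5 to 88.4 CPM, and the ratio to the untreated library was 1.52 in each clone. The log2 fold change was 0.60 ± 0.15 (SE, edgeR unadjusted P = 0.00916).

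CDC6, the ATPase that joins the origin complex to load the helicase, was at 123.6 and 120.2 CPM untreated and at 166.3 and 160.5 CPM after H2O2 (log2 fold change 0.42 ± 0.12, SE, edgeR unadjusted P = 0.0154). ORC6 was at 73.5 and 75.7 CPM untreated and at 92.0 and 103.5 CPM after H2O2 (log2 fold change 0.38 ± 0.13, SE, edgeR unadjusted P = 0.0301). For both genes the treated libraries lay above every untreated library of any genotype. CDT1, the partner of CDC6 in loading, was at 128.7 and 119.7 CPM untreated and at 139.6 and 139.3 CPM after H2O2, with edgeR unadjusted P = 0.246, and OGG1 knockout clone 22 was higher at 156.5 CPM without treatment.

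The helicase and its activators had smaller differences of 1 sign. All 6 MCM genes had log2 fold changes between 0.15 and 0.23 and none was called, with unadjusted P from 0.118 to 0.309. MCM4 was at 557.9 and 512.2 CPM untreated and at 636.8 and 619.7 CPM after H2O2, above all untreated libraries, as was MCM3. The 6 activation genes ran from 0.09 (CDC45) to 0.35 (GINS3), and 3 of them, MCM10, GINS2 and GINS3, passed an unadjusted P of 0.05 with clone as a block. The summed level of the 6 helicase genes was 2218 and 2230 CPM in untreated clones 2 and 11 and 2649 and 2474 CPM after treatment.

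At the fork, members of the clamp loader had log2 fold changes of either sign, and 2 of its 5 subunits were called. RFC2, a subunit of the clamp loader, was at 57.8 and 54.5 CPM untreated and at 78.9 and 76.9 CPM after H2O2 (log2 fold change 0.47 ± 0.13, SE, edgeR unadjusted P = 0.0117). RFC4 of the same complex was at 84.3 and 73.4 CPM untreated and at 70.8 and 67.0 CPM after H2O2 (log2 fold change -0.20 ± 0.14, SE, edgeR unadjusted P = 0.200). RFC2 was high and RFC4 low in both treated libraries, without overlap with untreated WT in either case, and the difference between the 2 genes was not tested. RFC4 is overlapped on the opposite strand by EIF4A2. RFC1, the large subunit, was called at 0.30 (edgeR unadjusted P = 0.0481), with 134.8 and 138.2 CPM untreated and 170.4 and 167.9 CPM after H2O2. PCNA, which the complex loads, was at 247.3 and 199.2 CPM untreated and at 293.3 and 226.2 CPM after H2O2, where treated clone 11 lay below untreated clone 2 (edgeR unadjusted P = 0.304).

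The polymerase and primase genes had the lowest median of the roles, 0.005 on the log2 scale. POLA1, the catalytic subunit of polymerase alpha, was called, at 168.1 and 177.6 CPM untreated and at 246.0 and 213.3 CPM after H2O2 (log2 fold change 0.40 ± 0.14, SE, edgeR unadjusted P = 0.0272). POLD1 was at 140.0 and 152.4 CPM untreated and at 138.4 and 116.9 CPM after H2O2 (-0.20 ± 0.14, SE, edgeR unadjusted P = 0.214). POLE was at 288.8 CPM untreated and 346.1 CPM treated in clone 2, and at 328.4 and 267.3 CPM in clone 11, with opposite signs. The remaining members of this role, POLA2, PRIM1, PRIM2, POLD3 and POLE2, had log2 fold changes between -0.06 and 0.21. Of polymerase subunits outside the role, POLE3 was at 148.3 and 144.0 CPM untreated and at 186.1 and 188.3 CPM after H2O2. POLE4 was at 10.9 and 13.6 CPM and then at 15.5 and 19.4 CPM. POLD2 was at 245.1 and 193.5 CPM and then at 226.8 and 193.9 CPM. POLD4 was at 1.02 and 1.37 CPM and then at 0.95 and 0.88 CPM.

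RPA2, the subunit of RPA that is phosphorylated on damage, was called and the others of its complex were not. It was at 93.1 and 86.5 CPM untreated and at 123.8 and 117.8 CPM after H2O2 (log2 fold change 0.42 ± 0.13, SE, edgeR unadjusted P = 0.0173), whereas RPA1 was at 161.9 and 163.0 CPM and then at 164.9 and 169.8 CPM. For nucleotide supply, RRM2 was at 427.9 and 464.5 CPM untreated and at 582.0 and 591.4 CPM after H2O2 (0.39 ± 0.13, SE, edgeR unadjusted P = 0.0239), above every untreated library. RRM1, its partner in ribonucleotide reductase, was at 251.6 and 254.2 CPM untreated and at 272.8 and 252.9 CPM after H2O2 (edgeR unadjusted P = 0.709). TYMS, thymidylate synthase, had a log2 fold change of 0.30 (edgeR unadjusted P = 0.0952 and unadjusted P = 0.0311 with clone as a block).

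Both E-type cyclins were higher in both treated clones, and CCNE2 had the largest log2 fold change of the members. It was at 15.0 and 20.7 CPM untreated and at 27.0 and 29.5 CPM after H2O2, which was 1.81-fold in clone 2 and 1.42-fold in clone 11 (log2 fold change 0.66 ± 0.22, SE, edgeR unadjusted P = 0.0254). Its gene is overlapped on the opposite strand by INTS8 and NDUFAF6, and since the strand setting of the counting is not stated, reads of the overlap cannot be told apart. CCNE1 was at 31.9 and 32.3 CPM untreated and at 35.4 and 40.2 CPM after H2O2 (edgeR unadjusted P = 0.180). E2F1 was at 85.1 and 105.1 CPM untreated and at 87.2 and 82.3 CPM after H2O2 (-0.17 ± 0.15, SE, edgeR unadjusted P = 0.307), and the clones differed in sign. CLSPN and TIPIN, of the fork protection and checkpoint proteins, had log2 fold changes of 0.05 and 0.34, and TIPIN passed an unadjusted P of 0.05 with clone as a block (edgeR unadjusted P = 0.0174).

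**Figure D5:**
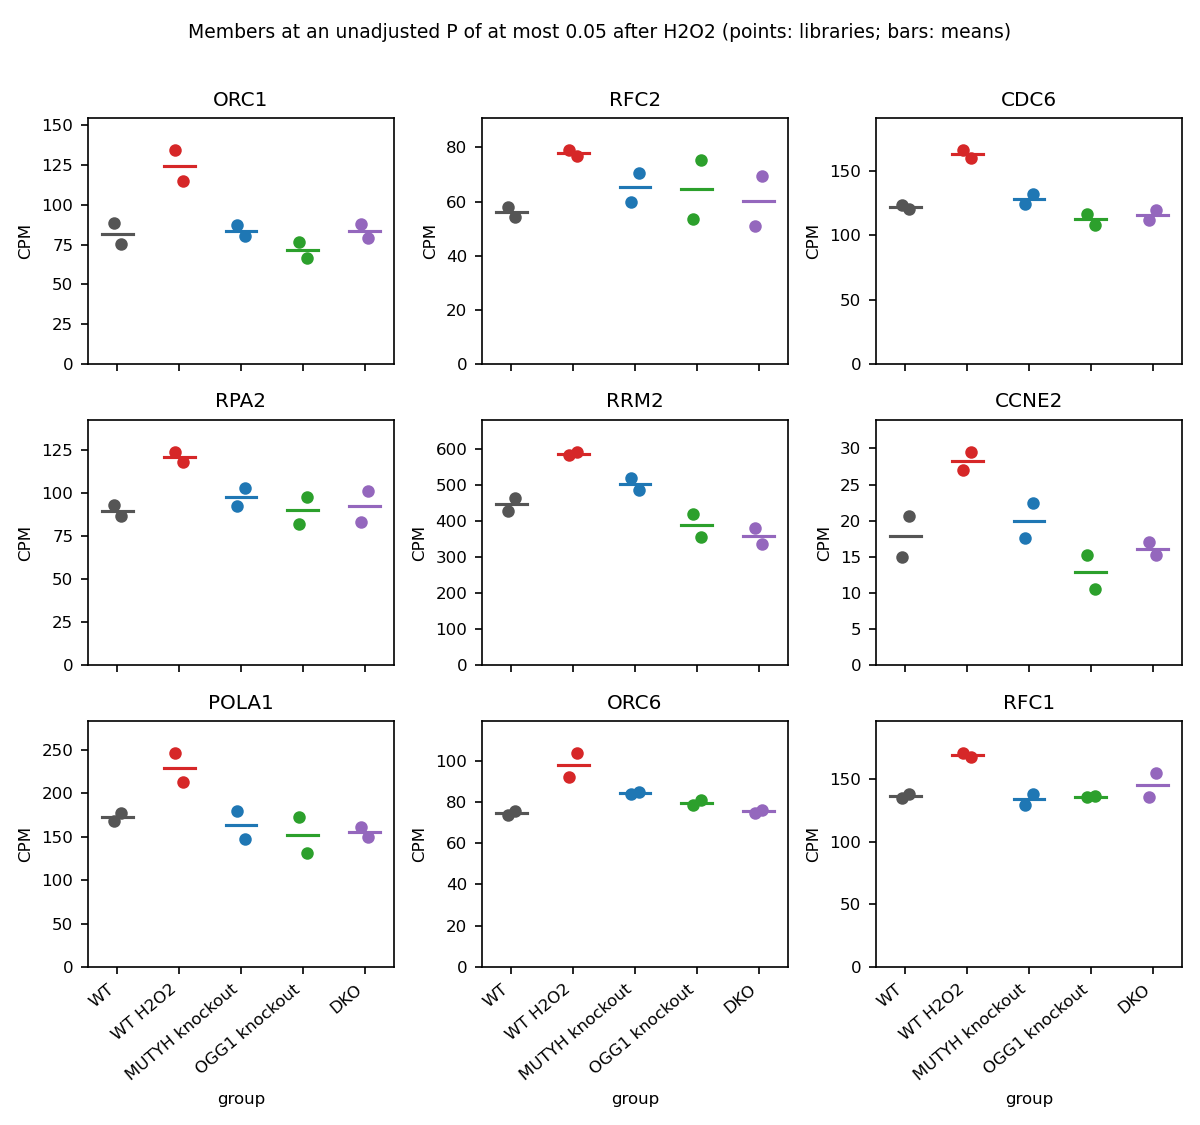
TMM-normalized CPM of the 9 members at an unadjusted P of at most 0.05 after H2O2, by group; points are libraries, bars are means of 2, and each axis starts at 0. In all 9 panels both treated libraries (red) lie above all untreated libraries of every genotype.

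Of the 7 called members with a promoter in the table, CDC6 and POLA1 had an E2F-type match, as printed above, and ORC1, ORC6, RFC1, RFC2 and RRM2 had none in this window. Over all 34 member promoters the share with a match was 52.9%.

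Other cell cycle genes were read beside the members. Over all tested genes, 7.63% were called without the block (3.57% higher) and 20.1% with it (9.61% higher). Of 55 other replication and S-phase genes, 4 were called after H2O2 without the block, all higher, with a median log2 fold change of 0.15. With clone as a block 13 of these 55 were called, all higher. Of these, 4 passed adjustment by edgeR, against 2.57% of all tested genes in either direction and 1.18% in the higher one. The 3 of smallest P without the block were E2F8 and E2F7, E2F factors that repress transcription, and CDC25A, the phosphatase that activates CDK2. E2F8 was at 50.8 and 48.6 CPM in untreated clones 2 and 11 and at 94.3 and 78.2 CPM after H2O2 (edgeR unadjusted P = 0.00227, adjusted p = 0.638). E2F7 was at 72.6 and 60.6 CPM and then at 158.0 and 92.7 CPM, and CDC25A at 106.6 and 97.5 CPM and then at 150.6 and 144.6 CPM. All 3 were higher in both treated clones, without overlap.

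CDKN1A, which encodes the CDK inhibitor p21, was the single gene of 17 inhibitors, D-type cyclins and pocket proteins called without the block. It was at 7.85 and 3.94 CPM in untreated clones 2 and 11 and at 194.7 and 18.9 CPM after H2O2 (log2 fold change 4.17 ± 1.11, SE, edgeR unadjusted P = 0.0106, adjusted p = 0.638). With clone as a block, 6 of the 17 were called (20.1% of all tested genes), 4 higher and 2 lower. Of these 1, CDKN1A, passed adjustment (2.57% of all tested genes). Treated clone 2 was far above treated clone 11, whose level lay near that of untreated MUTYH knockout clone 8 (19.3 CPM) and DKO clone 14 (17.4 CPM). Of 18 G2/M genes 0 were called by edgeR without the block (7.63% of all tested genes), with a median log2 fold change of 0.04. With clone as a block 2 were called (20.1% of all tested genes), AURKA higher and AURKB lower. The summed level of the 18 G2/M genes was 4549 and 5145 CPM untreated and 5081 and 4786 CPM after treatment, higher in clone 2 and lower in clone 11.

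Base composition moved with the treatment over all genes. The Spearman correlation of the log2 change with transcript GC was -0.28 across 14770 tested genes and -0.17 across the 41 members, and the summed level of 9 fibroblast and epithelial markers, mostly VIM, was 254.3 and 439.1 CPM untreated and 337.7 and 589.9 CPM after treatment. The 1 call on that list without the block was lower, COL1A1, at 22.6 and 27.3 CPM untreated and 15.5 and 18.4 CPM after treatment (edgeR unadjusted P = 0.0329). The part of composition or of these markers in the result was not tested.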

How the data were processed

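RNA of 10 HAP1 libraries was sequenced on DNBseq. The authors aligned reads to GRCh38 with HISAT2 (2.2.1 per the labels) and deposited raw gene counts from featureCounts. Strand and multi-mapping settings are not given in the sources used here. Of the 41 members, 22 are overlapped by a gene on the opposite strand and 11 on the same strand (GENCODE 44). The labels also name FastQC 0.11.9, R 4.2.2 and edgeR 3.42.4. All count columns matched a sample.

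Counts were tested with edgeR 4.0.16 in R 4.3.3 (limma 3.58.1): TMM factors, filterByExpr by group, quasi-likelihood F test, Benjamini-Hochberg adjustment over all tested genes. The genotype fit held 8 untreated libraries (4 residual degrees of freedom), the H2O2 fit 4 (2 residual degrees of freedom). DEGs were genes past 1 on the log2 scale in either direction with P, before adjustment, no higher than 0.05. Log2 CPM used a prior count of 2. DESeq2 1.42.0 was an alternative, with other filters, scalings, blocks and left-out libraries. The scripts were tested on simulated counts.

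Treated and untreated WT libraries share clones 2 and 11, which pairs them. Their deviations from the group means correlated at 0.681. No pair of libraries agreed within sampling noise (lowest chi-square per degree of freedom 10.9). Total counts of 22225091 to 22674964 set the counting precision.

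Members and lists were chosen with earlier results of these data known. Any member could be named. Values per library were given for the 4 members of smallest P in each comparison, for those of highest and lowest level and for those of widest spread. From other lists, the genes of smallest P (up to 3) were named. Markers, G2/M genes and further origin complex and polymerase subunits named beyond that were chosen after their values were seen. Promoters came from RefSeq (GRCh38.p14), and 7 members had none in the table used.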

Additional observations from a re-analysis of the deposited data

How the results depend on the processing

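Of 143 alternative values of the counts and medians, 135 kept their direction and side of the threshold, and of 176 for named members 160 did, with 9 losing and 7 gaining a call; none reversed. With clone as a replicate block, the number of members at an unadjusted P of 0.05 after H2O2 went from 9 to 14, and at an adjusted p of 0.05 from 0 to 2 (edgeR). The block left 1 residual degree of freedom. Leaving out 1 library at a time gave 0 to 6 members, 0 without treated clone 2 (3.30% of all tested genes called) and 1 without treated clone 11 (2.04%). With the sets of untreated libraries as a block, DKO against WT gave 4 members in place of 0, against the MUTYH knockout 7 in place of 1, against the OGG1 knockout 2 in place of 0, and the interaction 1 in place of 0. Leaving out 1 library at a time gave 0 to 1 in DKO (1 without DKO clone 14, CCNE1, and 1 without WT clone 11, POLD3), and 0 to 2 in the OGG1 knockout (2 without clone 1). The causes of these shifts were not tested. With a library left out, the lone sample of its group was assumed to vary like the others. No block by replicate number could be made between genotypes, whose clones carry different numbers. With 2 libraries a group, small differences were not detectable.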
